A study of Arabidopsis thaliana with 6 samples.

Results

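The genes described here build the cellulose of primary cell walls, the thin walls of growing and living cells. They were taken by name and comprise 10 of the 33690 features in a table of stem RNA from Arabidopsis thaliana. The list holds the cellulose synthase genes CESA1, CESA2, CESA3, CESA5, CESA6 and CESA9 and the companion genes KOR1, COB, CTL1 and CSI1. The table gives FPKM, fragments scaled to gene length and to the mapped fragments of a library, so levels of different genes can be set side by side. The groups were wild type of the Columbia accession (3 libraries) and *hdt1*, a T-DNA insertion mutant of the HD2-type histone deacetylase gene HDT1 (3 libraries). The labels give mature main stems at 35 days after flowering, grown at 20 °C with 16 h of light, without treatment. The paper's methods differ from the labels, with a higher nominal temperature and a shorter light period. The paper describes stems freed of flowers and leaves at its last stage, when stems yellow. It used more than one insertion line, and neither it nor the labels say which was sequenced. Nor do they say whether the libraries of a genotype came from separate plants, so p-values measure the spread between these libraries, which may be technical.

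Cellulose is spun out at the plasma membrane by rosette-shaped complexes whose subunits are CESA proteins. In primary walls a complex needs CESA1, CESA3 and a member of the CESA6-like class (CESA6, CESA5, CESA2 or CESA9), which occupy different positions. Secondary walls of vessels and fibres are made by a different trio, CESA4, CESA7 and CESA8. KOR1 (KORRIGAN) is a membrane-bound endo-glucanase that works with the complex, and CSI1 links it to the cortical microtubules along which it travels. COB (COBRA) is a lipid-anchored wall protein required for oriented cellulose deposition, and CTL1 (POM1) is a chitinase-like protein required for the assembly of glucan chains.

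The recovered read totals ran from 41981731 to 47004750 per library. HDT1 itself stood at 53.3, 65.3 and 56.9 FPKM in wild-type stems, against 4.97, 19.8 and 20.5 FPKM in *hdt1*, with no overlap. The table numbers the libraries of each genotype 1, 2 and 4. Over 17906 genes, library 1 stood apart in both genotypes: Pearson's r of log2 values was 0.977 between the library 1 samples, 0.995 between libraries 2 and 4 of a genotype, and 0.853 to 0.906 for the other pairs. Between the genotypes, libraries 2 and 4 correlated at 0.901 to 0.906, so they matched less closely than the library 1 samples did. For the wild type this was little above the r with library 1 of *hdt1* (0.898 for library 4). For *hdt1* it was above the r with library 1 of either genotype (0.853 to 0.872). The labels do not name the split of library 1 from libraries 2 and 4. Each member is therefore also described by library set, and what sets library 1 apart was not tested.

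All 9 members that passed the filter on low values (1 FPKM or more in 3 or more libraries) had higher means in *hdt1* than in the wild type, by log2 fold changes of 0.35 for CESA1 to 1.09 for COB. CESA9 did not pass the filter. For 7 of the 9, every *hdt1* library was above every wild-type library, against 8.50% of all 17906 genes tested, and for 0 of the 9 the reverse held, against 10.9%. CESA6 and CTL1 were the exceptions. The 9 genes were also higher in *hdt1* both within library 1 and within libraries 2 and 4, as were 22.0% of all genes, while 34.2% of all genes were lower in both. None of them passed an adjusted p under 0.05 in the limma fit, where 0.00% of all genes did so, with adjusted p-values of 0.217 to 0.494. At an unadjusted p under 0.05, 6 of the 9 stood higher (CESA2, CESA5, CESA6, KOR1, COB and CSI1) and 0 lower, against 7.78% and 5.96% of all genes. Voom on the recovered counts, another method in limma, also passed 0 of the 9 after adjustment, and 0 of all 17906 genes. In bulk stems more cells of a type and more RNA per cell cannot be told apart.

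The median log2 fold change of the 9 members was 0.72 (0.51 by library 1 alone, 0.82 by the other pair), and over all genes tested it was -0.08. These fold changes are *hdt1* minus wild type on the scale of log2(FPKM + 1). With the library split (1 against 2 and 4) as a further term in the fit, 4 members passed an adjusted p under 0.05, all higher in *hdt1*: CESA2, CESA5, CESA6 and KOR1. On that setting 3.82% of all genes were called higher and 2.52% lower. The term treats libraries 2 and 4 as independent samples and fits the same shift between the library sets in both genotypes. Without library 2 of the wild type the number of members at an unadjusted p under 0.05 was 3, and over all genes the numbers were 719 higher and 270 lower, against 1393 and 1068 with it.

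**Figure D1:**
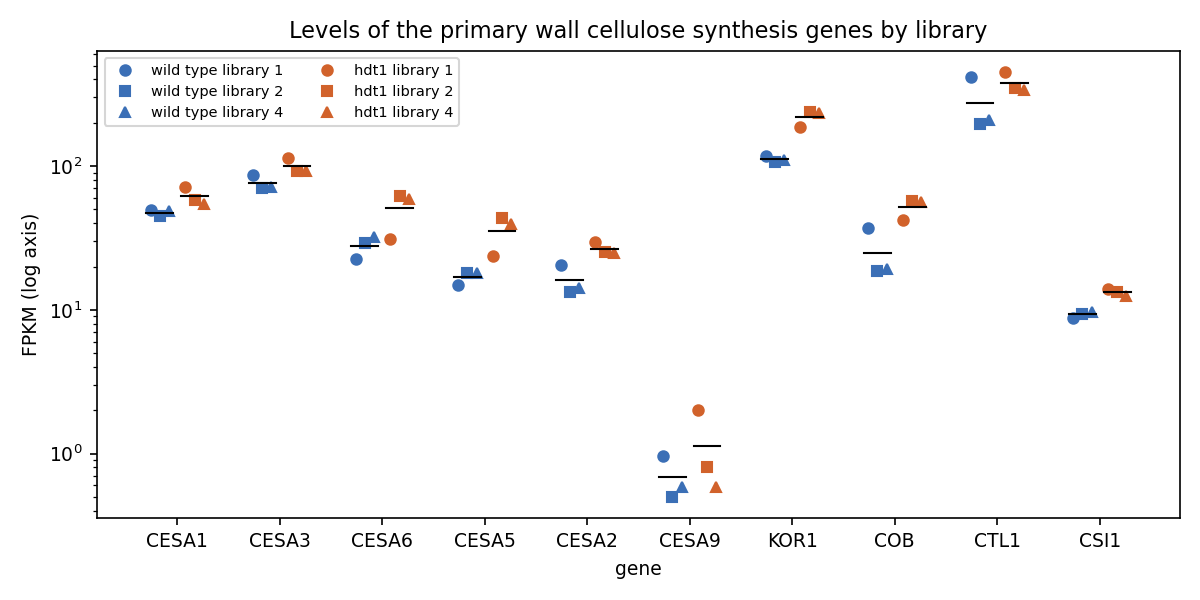
FPKM (log axis) of each primary wall cellulose gene in the 3 wild-type (blue) and 3 *hdt1* (orange) libraries, with symbols for library number and black lines for genotype means. CTL1 and KOR1 lie highest and CESA9 lies near or under 1 FPKM in most libraries, and the orange points lie above the blue ones for every gene but CESA6, CTL1 and CESA9.

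CESA1 (AT4G32410), a subunit that primary wall complexes cannot do without, lies on chromosome 4 (15640490 to 15646844, minus strand, TAIR10.1). Its FPKM read 49.4, 44.6 and 48.4 in the wild type, in the order of libraries 1, 2 and 4 kept throughout, against 71.9, 58.0 and 54.2 in *hdt1*. The groups did not overlap, and library 1 was the highest in *hdt1*. Wild-type libraries averaged 47.5 ± 2.49 FPKM and *hdt1* libraries 61.4 ± 9.29 FPKM (SD, n = 3 each). Its log2 fold change was 0.35 ± 0.17 (standard error), at a limma adjusted p = 0.401. Taken by library set it came to 0.53 (library 1) and 0.27 (the other pair). Over all 6 libraries no other member that passed the filter had a smaller log2 fold change.

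CESA3 (AT5G05170), the other subunit common to all primary wall complexes, is named CEV1 in the annotation and lies on chromosome 5 (1530132 to 1535558, minus strand). Its values were 86.7, 70.3 and 71.5 FPKM in the wild type and 114, 92.0 and 91.8 FPKM in *hdt1*. All *hdt1* values exceeded all wild-type values, and library 1 was the highest in each genotype. The log2 fold change was 0.38 ± 0.17 (standard error), at a limma adjusted p = 0.398, nearly alike in library 1 (0.39) and in libraries 2 and 4 (0.37). CESA3 kept close to the same proportion to CESA1 everywhere: the CESA3 to CESA1 ratio of FPKM ran from 1.48 to 1.76 in the wild type and from 1.58 to 1.69 in *hdt1*.

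In libraries 2 and 4, CESA2, CESA5 and CESA6 of the CESA6-like class had larger log2 fold changes (0.82, 1.16 and 0.96) than CESA1 and CESA3 (0.27 and 0.37). In library 1 the ranges met, with 0.51, 0.65 and 0.45 against 0.53 and 0.39. CESA6 (AT5G64740, chromosome 5, 25881033 to 25886728, plus strand), the main member of the class in elongating hypocotyls, was at 22.7, 29.0 and 32.3 FPKM in wild-type stems, against 31.3, 62.2 and 58.8 FPKM in *hdt1*. The genotypes overlapped, because library 1 of *hdt1* lay just under library 4 of the wild type. Its log2 fold change was 0.79 ± 0.30 (standard error), at a limma adjusted p = 0.340. Taken by library set it came to 0.45 (library 1) and 0.96 (the other pair). With the library split in the fit the adjusted p was 0.0421 from limma.

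CESA5 (AT5G09870, chromosome 5, 3072870 to 3078416, plus strand) also takes part in making the cellulose of seed coat mucilage. It was measured at 14.8, 18.1 and 17.9 FPKM in wild-type stems, against 23.8, 43.7 and 39.3 FPKM in *hdt1*. No wild-type library reached the lowest *hdt1* library. The log2 fold change was 0.99 ± 0.26 (standard error), at a limma adjusted p = 0.287 (adjusted p = 0.0333 once the split entered the model). Library 1 gave 0.65, and the other pair gave 1.16. CESA5 and CESA6 shared one form: in both genes library 1 was the lowest library of its genotype.

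CESA2 (AT4G39350, chromosome 4, 18296388 to 18302192, plus strand) had the opposite order of libraries. Its values were 20.5, 13.3 and 14.2 FPKM in the wild type and 29.7, 25.2 and 25.0 FPKM in *hdt1*, with library 1 the highest of each genotype and no overlap between genotypes. Averages were 16.0 ± 3.93 FPKM and 26.6 ± 2.64 FPKM (SD, n = 3 each). The log2 fold change was 0.72 ± 0.21 (standard error), at a limma adjusted p = 0.291 (adjusted p = 0.0338 once the split entered the model).

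CESA9 (AT2G21770, chromosome 2, 9284391 to 9289744, plus strand), known for its part in seed coat cells, was the faintest member. It stood at 0.967, 0.502 and 0.582 FPKM in wild-type stems, against 2.01, 0.803 and 0.584 FPKM in *hdt1*, so that it was above 1 FPKM in 1 library only. Those values rest on 136, 72 and 78 recovered reads in the wild type and on 300, 113 and 82 in *hdt1*. The genotypes overlapped. When no filter was applied its log2 fold change was 0.29 (adjusted p = 0.667 from limma).

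**Figure D2:**
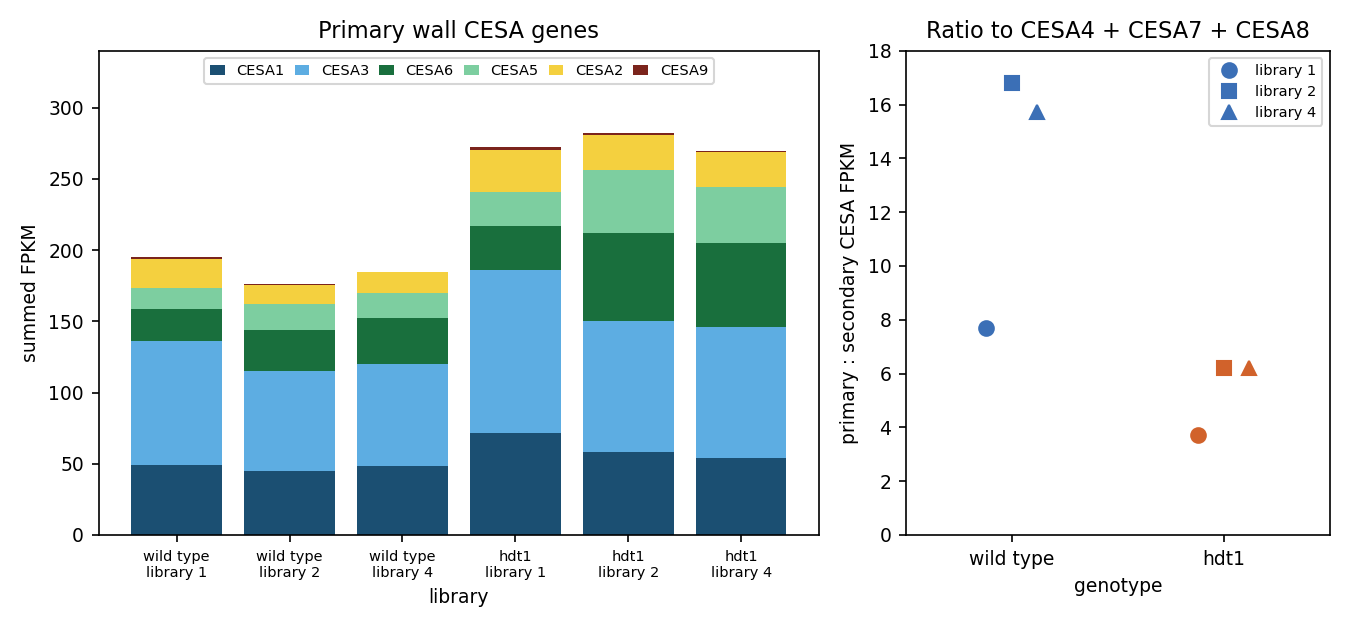
Left, FPKM of the 6 primary wall CESA genes stacked for each library; right, the ratio of that sum to the summed FPKM of CESA4, CESA7 and CESA8 by genotype, with symbols for library number. The stacks reach 176 to 195 FPKM in the wild type and 270 to 282 FPKM in *hdt1*, while the ratio runs from 7.69 to 16.8 in the wild type and from 3.71 to 6.21 in *hdt1*.

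Added together, the 6 primary wall CESA genes came to 195, 176 and 185 FPKM in the wild type and to 272, 282 and 270 FPKM in *hdt1*. The sums averaged 185 ± 9.56 FPKM (SD, n = 3), against 275 ± 6.47 FPKM in *hdt1* (SD, n = 3), 1.48-fold as much, with no overlap. It was 1.40-fold in library 1 and 1.53-fold in libraries 2 and 4. No p is given for sums over the members.

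The make-up of this pool stood apart in libraries 2 and 4 of *hdt1*. CESA1 supplied 25.3% to 26.2% of the pool in the wild type, 26.4% in library 1 of *hdt1*, and 20.6% and 20.1% in libraries 2 and 4 of *hdt1*. The CESA6-like class supplied 30.2%, 34.6% and 35.2% in the wild type and 31.8%, 46.8% and 45.9% in *hdt1*. The shift of the pool from CESA1 and CESA3 towards the CESA6-like class was thus seen in libraries 2 and 4, where the share was 11.4 percentage points higher in *hdt1*, and was 1.61 points in library 1.

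Within the CESA6-like class, CESA2 made up 34.8%, 21.9% and 21.8% of the FPKM in the wild type and 34.2%, 19.1% and 20.2% in *hdt1*. The share of CESA6 was 38.4%, 47.5% and 49.7% in the wild type and 36.1%, 47.2% and 47.6% in *hdt1*. For both genes library 1 differed from libraries 2 and 4 by more than the genotypes differed in the same library. CESA5 was somewhat larger in *hdt1*, at 27.4%, 33.1% and 31.8% against 25.1%, 29.7% and 27.6%, with overlap between the genotypes. CESA9 supplied at most 2.31% of the class in any library.

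Among the companions, KOR1 (AT5G49720, chromosome 5, 20197391 to 20200468, minus strand, listed as GH9A1 in the annotation) had the smallest p of all members. It was measured at 118, 106 and 109 FPKM in wild-type stems, against 187, 236 and 234 FPKM in *hdt1*. The lowest *hdt1* library exceeded the highest wild-type library by a wide margin. On average it stood at 111 ± 6.12 FPKM and 219 ± 27.8 FPKM (SD, n = 3 each), and the log2 fold change was 0.97 (standard error 0.17). From limma its unadjusted p was 0.00104, in place 82 of 17906, and its adjusted p was 0.217 (adjusted p = 0.0297 with the split in the fit). KOR1 is not confined to primary walls, since mutants in this gene also have irregular xylem. It stood at 2.26 to 2.39 times the FPKM of CESA1 in the wild type and at 2.61, 4.07 and 4.32 times in *hdt1*.

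COB (AT5G60920, chromosome 5, 24511152 to 24514338, minus strand) had the largest log2 fold change of the members and the most uneven one. The wild type had 37.0, 18.6 and 19.3 FPKM and *hdt1* had 42.1, 57.5 and 56.4 FPKM. All *hdt1* libraries were higher, but in library 1 by 1.14-fold alone and in libraries 2 and 4 by 3.00-fold. Over all libraries the log2 fold change was 1.09 ± 0.30 (standard error), at a limma adjusted p = 0.287. In the wild type library 1 was 1.95 times libraries 2 and 4, whereas in *hdt1* it was 0.738 times.

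CTL1 (AT1G05850, chromosome 1, 1766503 to 1768837, minus strand, POM1 in the annotation) was the most abundant member. Its FPKM was 414, 194 and 210 in the wild type and 451, 347 and 337 in *hdt1*. The genotypes overlapped, as wild-type library 1 exceeded libraries 2 and 4 of *hdt1*. The means came to 273 ± 123 FPKM and 378 ± 63.2 FPKM (SD, n = 3 each). The log2 fold change was 0.54 ± 0.33 (standard error), at a limma adjusted p = 0.494. It was 0.89 without library 1 of the wild type and 0.35 without library 2 of the wild type. Taken by library set it came to 0.12 (library 1) and 0.76 (the other pair).

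CSI1 (AT2G22125, chromosome 2, 9406059 to 9414578, plus strand) was low and steady. It stood at 8.77, 9.40 and 9.72 FPKM in wild-type stems, against 13.9, 13.3 and 12.5 FPKM in *hdt1*, without overlap. Its averages were 9.29 ± 0.481 FPKM and 13.2 ± 0.703 FPKM (SD, n = 3 each), and the log2 fold change was 0.47 ± 0.14 (standard error), at a limma adjusted p = 0.298. Of the members that passed the filter CSI1 had the smallest standard error, and its value in library 1 (0.61) was above that in libraries 2 and 4 (0.40).

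For the 7 genes without overlap the two-sided exact permutation test gave p = 0.1, the smallest that 3 against 3 libraries allow, and it gave p = 0.2 for CESA6 and p = 0.3 for CTL1. The levels had the same leading order in both genotypes: CTL1, KOR1, CESA3 and CESA1 came first, with no overlap between these neighbours within a genotype. In the wild type CESA6, COB, CESA5, CESA2, CSI1 and CESA9 followed, and the pairs CESA6 and COB and CESA5 and CESA2 overlapped. In *hdt1* COB was in the fifth place, and the genes from CESA1 down to CESA2 overlapped with their neighbours. By wild-type mean, CTL1 lay at the 97.8th percentile of the genes tested, CESA3 at the 89.0th, CESA1 at the 81.5th and CSI1 at the 37.1st.

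**Figure D3:**
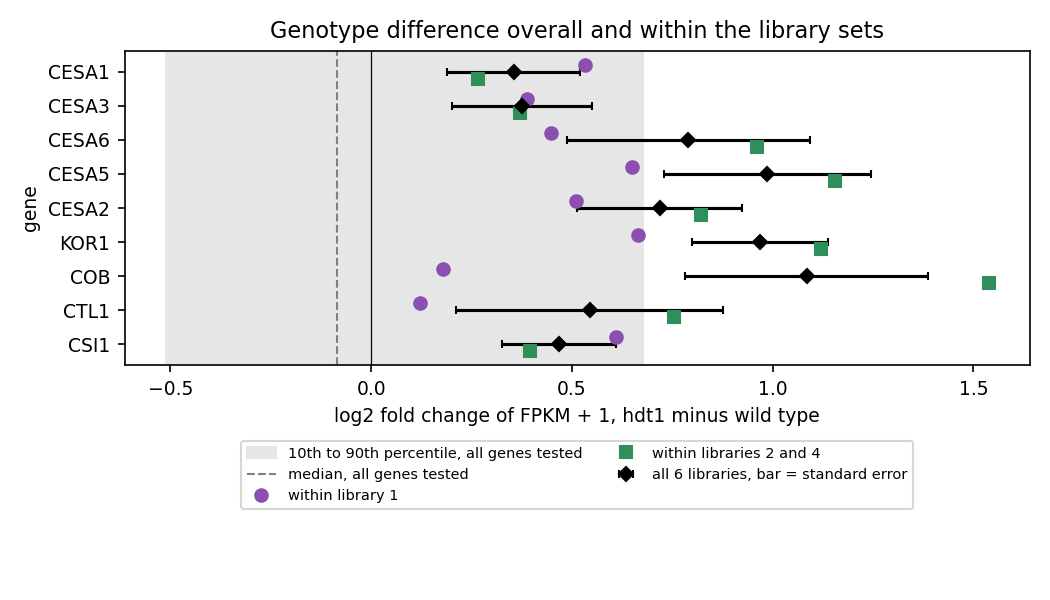
Log2 fold change of FPKM + 1 (*hdt1* minus wild type) for the 9 genes tested: diamonds with standard error over all 6 libraries, purple circles within library 1 and green squares within libraries 2 and 4; the grey band spans the 10th to 90th percentile of all genes. Every point lies above 0, and COB and CTL1 have the smallest values in library 1 (0.18 and 0.12).

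The genotype difference was also compared between the library sets. That fit has 1 library per genotype on the library 1 side, so its residual spread comes from libraries 2 and 4 alone, which may be technical repeats, and its p-values do not cover the spread between library 1 samples. The difference of the log2 fold changes, libraries 2 and 4 minus library 1, was 1.36 for COB (standard error 0.11, adjusted p = 7.31e-05 from a limma fit with an interaction term). It was 0.63 for CTL1, 0.46 for KOR1, 0.51 for CESA6 and 0.50 for CESA5, each past an adjusted p under 0.05. For CESA1, CESA2, CESA3 and CSI1 it did not pass (-0.27, 0.31, -0.02 and -0.21). An interaction passed for 5 of the 9 members, all larger in libraries 2 and 4, and for 43.8% of all genes, of which those larger in libraries 2 and 4 made 20.7% of the genes tested.

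The profiles over the 6 libraries were compared with those of CESA1 and CESA6. Likeness was measured as the root mean square difference of log2(FPKM + 1) after centring each gene on its mean, where a smaller value means a closer match. From CESA1 the nearest members were CESA3 (0.0797) and CSI1 (0.122), and from CESA6 the nearest was CESA5 (0.132), whereas CESA1 and CESA6 were 0.508 apart. The median over the 13975 other genes with a mean of at least 5 FPKM was 0.394 from CESA1 and 0.667 from CESA6. CESA2, of the same class as CESA6, was 0.505 from it, closer than the median gene. COB was 0.530 from CESA1 and 0.502 from CESA6, and CTL1 was 0.331 and 0.667 from them.

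Outside the list, the genes closest to CESA1 were the auxin transporter gene ABCB1 (0.0428), AT1G20310, AT2G30600, the aquaporin gene PIP1C and AT3G22180. ABCB1 stood at 24.4, 23.9 and 23.9 FPKM in wild-type stems, against 36.1, 28.8 and 27.9 FPKM in *hdt1*. Closest to CESA6 were AGD7 (0.0578), RLM3, the formin gene FH8, the mitochondrial gene ATMG01380 and AT1G15670. AGD7 stood at 19.9, 25.4 and 26.7 FPKM in wild-type stems, against 24.5, 51.4 and 48.1 FPKM in *hdt1*. These are descriptions over 6 libraries that fall into separate sets.

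Proteins that assist, traffic or sense the primary wall complex were taken as a further list of 19 genes, of which 13 passed the filter. Their median log2 fold change was 0.65. Taken by library set it came to 0.20 (library 1) and 0.73 (the other pair). At an unadjusted p under 0.05 in limma, 6 of the 13 stood higher in *hdt1* and 0 lower, against 7.78% and 5.96% of all genes. In 5 every *hdt1* library was above every wild-type library, and in 0 the reverse held, against 8.50% and 10.9% of all genes. None passed after adjustment in limma, where 0.00% of all genes did so. With the split in the fit 2 passed, both higher, against 3.82% of all genes called higher and 2.52% lower. CSI3 and CC2 are among the 6 and among the 5, and CC2 is among the 2. CSI3 was under 1 FPKM in every wild-type library, and CC2 in libraries 2 and 4 of the wild type. Both passed the filter through their *hdt1* values, which favoured their being higher there.

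The most abundant of these genes was CYT1, which supplies GDP-mannose and is needed for cellulose synthesis. It stood at 103, 69.2 and 71.6 FPKM in wild-type stems, against 148, 138 and 132 FPKM in *hdt1* (log2 fold change 0.79, adjusted p = 0.280 from limma). CC1, a companion that helps the complex through salt stress, was at 35.0, 20.6 and 23.3 FPKM and at 34.2, 47.9 and 47.5 FPKM, so that it was no higher in library 1. RSW3, the catalytic subunit of an endoplasmic reticulum glucosidase, had a log2 fold change of 0.11.

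THE1, a receptor kinase that senses impaired cellulose synthesis, had 12.2, 18.9 and 19.2 FPKM in wild-type stems, against 15.1, 66.4 and 64.2 FPKM in *hdt1*. On the log2 scale the genotypes thus differed by 0.28 in library 1, but by 1.72 in the other pair. The close relatives of members, picked after their values were seen, varied: CSI3 had 0.65 at under 2 FPKM, the COBRA-like gene COBL2 had 1.04 and COBL1 had -0.18. CESA10, CSI2, KOR2 and KOR3 stayed under 1 FPKM in every library, and SHOU4 and SHOU4L were listed at 0 in all.

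Of 10 genes that supply UDP-glucose, the substrate of cellulose synthase, 6 passed the filter, with a median log2 fold change of 0.36 and a range from -0.05 to 0.72. The median was 0.22 without library 4 of the wild type. The cytosolic invertase gene CINV1, the most abundant, was at 41.5, 49.6 and 57.3 FPKM in wild-type stems, against 42.6, 51.3 and 49.0 FPKM in *hdt1*, with overlap. UGP1, a UDP-glucose pyrophosphorylase gene, had 0.39, UGP2 had 0.33 and the sucrose synthase gene SUS3 had 0.64. The sucrose synthase genes SUS1 and SUS3 were the ones at an unadjusted p under 0.05 in limma, both higher. Of all genes, 7.78% stood higher and 5.96% lower at that level. SUS4, named after its values were seen, was under 1 FPKM in every library of wild-type stems, against 0.0720, 5.72 and 5.62 FPKM in *hdt1*. SUS2, which did not pass the filter either, went the other way without overlap. It had at least 0.768 FPKM in each wild-type library and at most 0.665 FPKM in each *hdt1* library. SUS5 and SUS6, also outside the filter, overlapped between the genotypes.

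**Figure D4:**
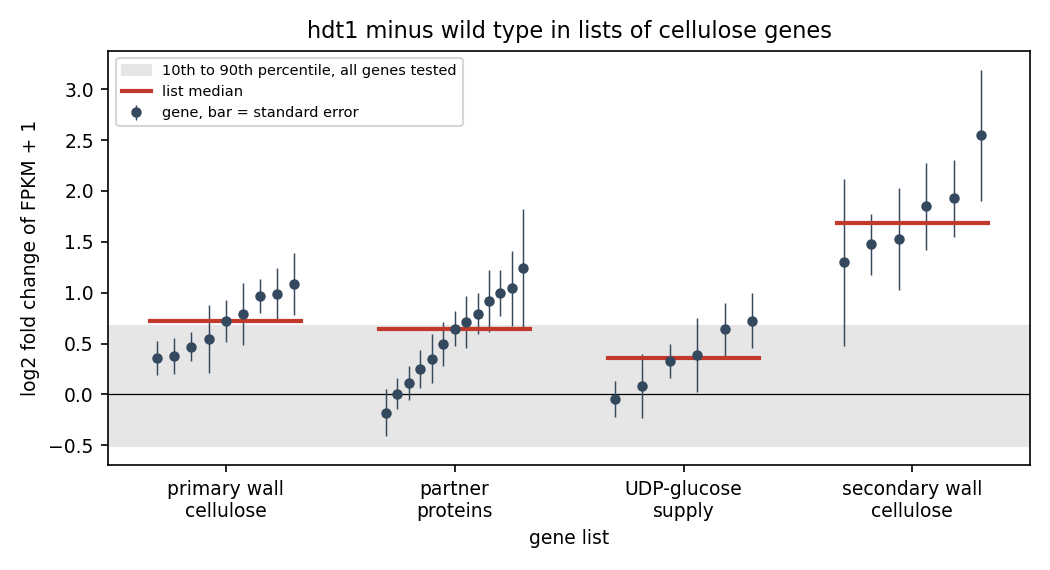
Log2 fold change of FPKM + 1 (*hdt1* minus wild type, standard error bars) for the genes tested in 4 lists, with list medians in red and the 10th to 90th percentile of all genes in grey. The medians are 0.72 for the primary wall genes, 0.65 for partner proteins, 0.36 for UDP-glucose supply and 1.69 for the secondary wall genes.

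The secondary wall counterparts CESA4, CESA7, CESA8, CTL2, COBL4 and TED6 had a median log2 fold change of 1.69 and a range from 1.30 (TED6) to 2.55 (CTL2), against 0.35 to 1.09 for the primary wall genes. The ranges met within each library set. Libraries 2 and 4 gave 1.35 for CESA7, under the 1.54 of COB, and library 1 gave -0.03 for TED6, under every primary wall gene. CESA4, CESA7 and CESA8 together came to 25.4, 10.5 and 11.8 FPKM in the wild type and to 73.5, 45.4 and 43.5 FPKM in *hdt1*. The primary to secondary CESA ratio was therefore 7.69, 16.8 and 15.7 in the wild type and 3.71, 6.21 and 6.19 in *hdt1*. Primary wall CESA genes gave more FPKM than the secondary trio in every library, and no *hdt1* ratio reached the lowest wild-type ratio.

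Gene pairs gave the same picture. CTL1 and its secondary wall relative CTL2 had a ratio of 3.72, 9.25 and 9.96 in the wild type and of 1.77, 1.67 and 1.65 in *hdt1*. For COB and its relative COBL4 the ratio was 3.99, 8.32 and 5.55 in the wild type and 2.63, 2.93 and 3.01 in *hdt1*. Neither pair overlapped between genotypes, and the wild-type library 1 was nearest to *hdt1* in both. These ratios were not tested.

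Markers of cell types in the stem were summed for each library, and the sums of xylem and phloem markers did not overlap between the genotypes, while those of cambium, epidermis and green tissue did. Abundant genes dominate such sums, and the genes of a list did not all behave alike. The 4 xylem markers summed to 12.8 to 31.8 FPKM in the wild type and to 95.4 to 127 FPKM in *hdt1*. The 3 that passed the filter (XCP1, XCP2 and LAC4) were higher in every *hdt1* library. XCP1 was under 1 FPKM in every wild-type library and passed through *hdt1* alone, so the filter favoured its being higher there. The regulator gene VND7 was under 1 FPKM throughout. The 4 phloem markers, led by the sucrose transporter gene SUC2, summed to 105 to 142 FPKM and to 179 to 202 FPKM. SUC2 and APL were higher in every *hdt1* library, while SEOR1 and SEOR2 overlapped between the genotypes. Cambium markers summed to 17.4 to 28.1 FPKM and to 23.1 to 45.4 FPKM, with HB8 higher in every *hdt1* library and PXY and WOX4 overlapping. Epidermis markers summed to 80.4 to 209 FPKM and to 49.5 to 188 FPKM, highest in library 1 of each genotype. Most of that came from CUT1 (log2 fold change -0.70), whereas CER1 had 1.03, and each epidermis marker overlapped between the genotypes. Green tissue markers summed to 7344 to 8262 FPKM and to 5069 to 7434 FPKM, with CAB1 lower in every *hdt1* library and the others overlapping. The part of these tissues in the members' differences was not tested.

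Genes of dividing cells, whose cell plates also need primary wall cellulose, were low, with a sum of 4.63 to 5.10 FPKM in the wild type and 3.21 to 10.4 FPKM in *hdt1*. Of the 5 genes on that list 2 passed the filter, CDKB2;1 and KN, with log2 fold changes of -0.09 and -0.06. The library sets differed in sign. CDKB2;1 had 0.54 in library 1 and -0.41 in libraries 2 and 4, and KN had 0.81 and -0.50. Housekeeping controls (7 genes, ACT2 and UBQ10 among them) showed a median of -0.08 and summed to 2784 to 2975 FPKM and 3003 to 3092 FPKM, without overlap. Their log2 fold changes ran from -0.23 (TIP41) to 1.22 (UBC9), so that UBC9 was above every member. UBC9 stood at 148, 124 and 118 FPKM in wild-type stems, against 141, 434 and 451 FPKM in *hdt1*.

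Seed transcripts separated the wild-type libraries. The 7 seed markers summed to 0, 199 and 197 FPKM in the wild type and to 0.366, 9.54 and 8.19 FPKM in *hdt1*, highest in wild-type libraries 2 and 4. SESA1, a seed storage protein gene and the 1 seed marker that passed the filter, went the other way, at 5.08 and 4.67 FPKM in those libraries and 8.96 and 7.50 FPKM in libraries 2 and 4 of *hdt1*, and made up nearly all of the sum there. The 5 pollen markers had 1.96, 20.2 and 20.6 FPKM in wild-type stems and no more than 5.75 FPKM in *hdt1*, nearly all of it from VGD1. The 4 floral organ markers summed to at most 2.17 FPKM in any library. In library 1, where seed markers were at 0 and 0.366 FPKM, the 9 members had log2 fold changes of 0.12 to 0.66, from 1 library per genotype. The part of seed or pollen material in the members' differences was not tested.

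Counting error was small for the members tested, whose values rest on 1438 to 30134 recovered reads, or a counting error of 2.64% to 0.576%. It covers counting only. The paralogues could be told apart: of the 50-base words in the exons of each member, at most 0.0286% occur elsewhere in the TAIR10.1 genome. CESA1, CESA3, KOR1 and CSI1 overlap a neighbouring gene on the opposite strand by 22 to 74 bases, and whether counting used strand is not given.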

How the data were processed

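RNA was sequenced from mature stems (3 samples per genotype). The authors deposited a table of FPKM for 33690 features. The submitters' processing notes name HTSeq 0.6.1, Bowtie2 2.2.3 and TopHat2 2.0.12, without roles. The paper calls the unit RPKM. Neither build nor strand setting is given in the sources used here. Coordinates are from TAIR10.1. Columns could be tied to a genotype but not to a single sample.

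Whole counts were recovered for 25363 of 25374 features above 0 as multiples of the step of each gene, and common factors were set from exon lengths for 2080 features. Genes reaching 1 FPKM in no fewer than 3 libraries (17906) entered the test. Their log2(FPKM + 1) was fitted with limma 3.58.1 (R 4.3.3, mean-variance trend, Benjamini-Hochberg adjustment over all these genes). The code was also run on simulated data, with differences larger than those of the members, mostly less spread, and one library shift for both genotypes. That run cannot show how the fit performs for the members. Python 3.11.15 with NumPy 2.4.6, pandas 2.3.3 and matplotlib 3.10.9 was used. The study's test, DEGseq, was not run.

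Named are all members, their secondary wall counterparts, the most abundant genes of each list and the 5 nearest profiles. Members and lists were chosen with earlier results of these data known. Identifier AT2G33670, entered as CSLD1 in the pollen list, is MLO5 in the annotation.

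As a check of pairing, what remained of each library after its genotype mean was removed correlated at 0.562, 0.533 and 0.460 between same-numbered libraries (1, 2 and 4). Libraries 2 and 4 of different numbers correlated at 0.536 and 0.514 as well, so the numbers do not separate those. Alternatives were another pseudocount, other filters and scalings, a replicate block, a library split term, libraries 2 and 4 alone, robust moderation and each library left out. Added after seeing the data were voom on the recovered counts, libraries 2 and 4 averaged, and the interaction.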

Additional observations from a re-analysis of the deposited data

How the results depend on the processing

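Each of the 9 members tested kept a positive log2 fold change under all 18 alternatives. The number past an adjusted p under 0.05 was 0 in the main fit, 4 with the library split as a term, 5 with that term in voom (among 1083 genes higher and 645 lower), 9 with libraries 2 and 4 only, and 0 to 3 with each library left out. It was 3 without library 1 of the wild type (CESA2, KOR1 and COB, among 599 genes called higher and 537 lower) and 3 without library 1 of *hdt1* (CESA5, CESA6 and KOR1, among 1222 higher and 772 lower). With libraries 2 and 4 only, 11809 of all genes passed, and 1135 did so with the split term. With library numbers as a replicate block 0 members passed, the smallest adjusted p being 0.149 (KOR1), so the pairing changed no call after adjustment. Of all genes 0 passed there too. At an unadjusted p under 0.05 in that limma fit the number of members was 9, among 2225 genes higher and 2251 lower. With libraries 2 and 4 averaged 0 members and 0 of all genes passed, in a fit that leaves 1 residual degree of freedom. At an unadjusted p under 0.05 the number of members was 6, and 3 to 7 with each library left out, from 3 without library 2 of the wild type (719 of all genes higher, 270 lower) to 7 without library 1 of the wild type (2284 higher, 2730 lower). The median of the members ran from 0.61 to 0.89. The median of the secondary wall list was 1.69, and 1.43 to 2.29 with each library left out. The *hdt1* to wild type quotient of the primary to secondary CESA ratio was 0.401 (0.330 to 0.463). The differences in the shares of CESA2 and CESA6 within their class took either sign when a library was left out (-6.52 to 2.65 percentage points for CESA2). CESA9 is limited by its reads.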
